A study of Rattus norvegicus with 61 samples.

Results

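Whole spleen was compared with whole blood cells (WBC) in rats, with 5 samples of each, 10 of the 61 samples in the series. The members were chosen by their sample titles alone. All were from male Sprague-Dawley rats, labelled WT and untreated, and were 6 weeks old. For the spleen samples the tissue was pressed through a nylon mesh into a single-cell suspension, and the WBC samples came from blood drawn from the heart. Red cells were lysed in both before RNA isolation, so both groups are cell suspensions rather than intact organ or unprocessed blood. What remained in them beside white cells was not tested. The titles number the samples 1 to 5 in each group but do not tell whether they are separate rats, so the p-values measure the spread between these samples. A further 36 sorted samples, by the methods from untreated rats of the same strain, sex and age, served as a scale. They were B cells, natural killer (NK) cells and the CD8 and CD4 subsets of T cells from spleen, and neutrophils and monocytes from blood. Each type had 6 samples. The control livers named below are 5 samples from rats of the same strain, sex and genotype. They were taken 24 h after the vehicle, 0.5% methylcellulose given by gavage, and so were not untreated. By the methods, these rats had fasted before dosing and the livers were perfused.

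The spleen filters the blood and is the largest single lymphoid organ of the body. Its white pulp holds follicles of B cells, which make antibodies, beside sheaths of T cells, and its red pulp holds macrophages, plasma cells and passing blood cells. Blood leukocytes include neutrophils and monocytes, the short-lived phagocytes made in bone marrow, along with circulating lymphocytes. In bulk RNA, fewer cells of a type and less RNA per cell cannot be told apart.

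The values are estimated counts for 31196 Ensembl transcripts, used without gene names, and levels are given as counts per 1000000 of the sample total (CPM). A transcript was tested when its mean was at least 1 CPM over the 10 samples, which left 13885 transcripts. Fold changes are spleen over WBC from edgeR's quasi-likelihood test with TMM scaling, and a transcript is called when its p-value, adjusted by Benjamini-Hochberg over all those tested, is under 0.05. Each transcript was then put in a class, the sorted type in which its mean level was highest, or none of the 6 where it stayed under 1 CPM in every type. Because the lymphocytes were sorted from spleen and the myeloid cells from blood, cell type and tissue of origin cannot be told apart in these classes. Library totals were 10177572 to 13587693 in spleen and 9961625 to 11273769 in WBC, and replicates of a group correlated at 0.961 to 0.973 on log values, against 0.893 to 0.938 between the groups.

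The WBC libraries 1 and 2 stood apart from the other WBC samples. The 10 most abundant transcripts held 24.7% and 17.5% of their totals, against 12.1% to 12.5% in WBC 3 to 5 and 10.7% to 13.1% in the spleens. The excess lay in 7 transcripts, picked after their values were seen as being at least 1000 CPM in WBC 1 and at least 2-fold over the median of the other WBC samples. Together they held 20.8% of the total in WBC 1, 11.7% in WBC 2, 4.33% to 5.37% in WBC 3 to 5 and 2.59% to 4.49% in the spleens. All 7 were nominally highest in B cells, but by only 1.37-fold to 1.51-fold over the next sorted type. Of the 7, 6 were called lower in spleen in the comparison below. The share left to all other transcripts is smaller in these libraries, and the scaling between libraries bears on each count below.

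Nearly as many transcripts were higher in spleen as were lower, and the changes were mostly small. Of the 13885 tested, 3154 (22.7%) were called higher in spleen and 3315 (23.9%) lower, while 7416 were not called. The median log2 fold change was 0.02 over all transcripts (quartiles -0.32 to 0.32), 0.55 over those called higher and -0.59 over those called lower. A change of at least 2-fold was seen in 790 called transcripts that were higher and 912 that were lower. At 4-fold or more these numbers fell to 273 higher (1.97%) and 234 lower (1.69%). At 16-fold they were 36 higher and 14 lower by the fitted values, or 27 and 9 when a group with every sample at or under 3 counts is set to that floor. After the same scaling, all 5 spleens lay above all 5 WBC samples in 2336 of the transcripts called higher (16.8% of those tested). All 5 lay below in 2565 of those called lower (18.5%).

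The balance of directions depended on the scaling. With library totals alone in place of TMM, the median of all transcripts moved to 0.18 on the log2 scale, with 4881 called higher and 2045 lower, so that 70.5% of the calls were higher in spleen against 48.8% with TMM. Without WBC 1 and 2 the counts were 2747 higher and 3063 lower, a choice made after these libraries were seen.

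**Figure D1:**
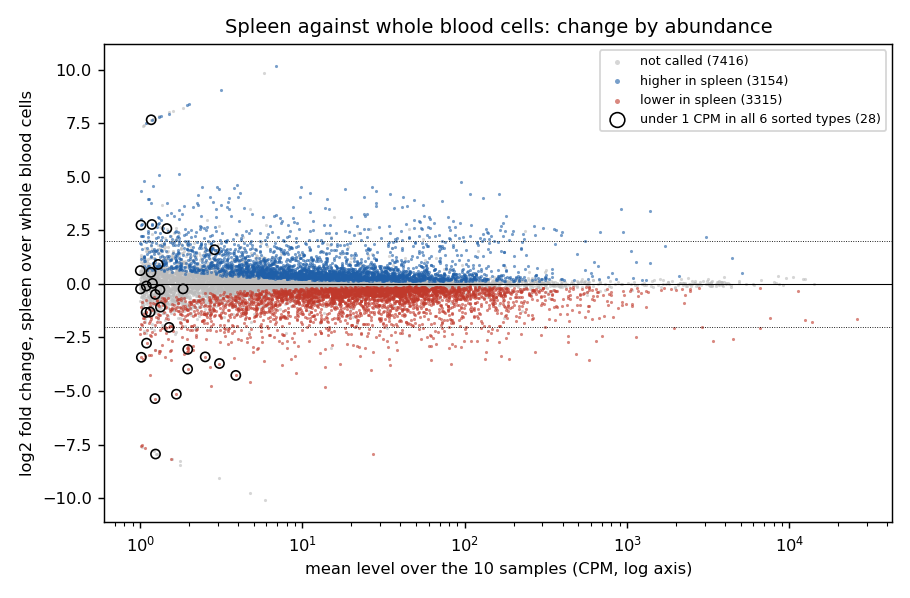
Log2 fold change of spleen over WBC (vertical axis) against the mean level over the 10 samples in CPM (log axis) for the 13885 transcripts tested. Blue points are the 3154 called higher in spleen, red points the 3315 called lower, grey points the rest, and open circles the 28 transcripts under 1 CPM in all 6 sorted types; dotted lines mark 4-fold, and the values beyond about 7 on the vertical axis belong to transcripts near 0 in one group.

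With TMM scaling, the share of calls that were higher in spleen fell as abundance rose. Among the 6048 transcripts with a mean of 1 to 10 CPM, 1306 were higher in spleen and 853 lower. From 10 to 100 CPM the order turned, with 1630 of 6706 higher and 2020 lower. From 100 to 1000 CPM there were 206 of 982 higher and 409 lower, a share of calls that were higher of 33.5%, against 60.5% in the lowest range. Of the 149 transcripts at 1000 CPM or more, 12 were higher and 33 lower, and 104 were not called. With library totals alone the same shares were 75.6% from 1 to 10 CPM, 69.5% from 10 to 100, 54.98% from 100 to 1000 and 77.9% above, so the excess of lower calls at high abundance was not kept under that scaling. Among called transcripts the median absolute log2 fold change was 0.85 from 1 to 10 CPM and 0.45 from 10 to 100. It was 0.52 from 100 to 1000 CPM and 0.54 above. The shares called in these ranges were 35.7%, 54.4%, 62.6% and 30.2%. Small changes are harder to call at low counts, so the sizes of called changes are not comparable between ranges.

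The most abundant transcripts were largely shared between spleen and blood. Of the 100 most abundant in each group, 93 were common to both, and of the 1000 most abundant, 828. Transcripts called higher in spleen held 16.6% ± 0.538 of the spleen totals (SD, n = 5) against 8.65% ± 0.714 of the WBC totals. Those called lower held 23.0% ± 1.35 of the spleen totals and 38.8% ± 4.40 of the WBC totals. They include 6 of the 7 transcripts that set WBC 1 apart, and the 7 held 20.8% of WBC 1 and 11.7% of WBC 2. The 273 transcripts at least 4-fold higher held 3.04% ± 0.338 of spleen against 0.453% ± 0.183 of WBC, and the 234 at least 4-fold lower held 1.09% ± 0.344 against 5.00% ± 1.39. Since these sets were picked by their difference, the shares are a description of how much RNA they cover.

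Direction went with the sorted type of highest level. Transcripts highest in a lymphocyte type made up 2911 of the 3154 called higher in spleen (92.3%) and 266 of the 273 that were at least 4-fold higher. Transcripts highest in neutrophils or monocytes made up 2750 of the 3315 called lower (83.0%) and 212 of the 234 that were at least 4-fold lower. Over the 8423 lymphocyte transcripts tested the median log2 fold change was 0.20, and over the 5434 myeloid transcripts it was -0.32, beside 0.02 over all.

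**Figure D2:**
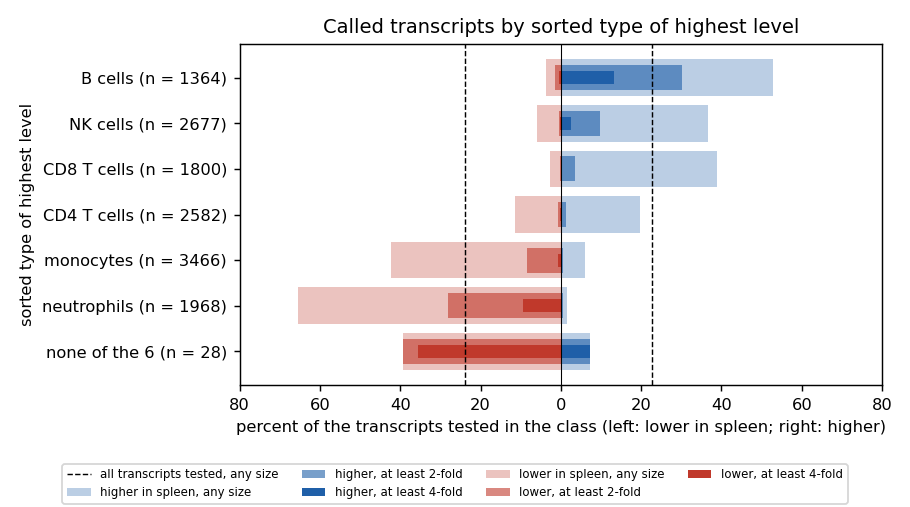
Percent of the transcripts tested in each class that were called higher in spleen (blue, to the right) or lower (red, to the left), for calls of any size, at least 2-fold and at least 4-fold; dashed lines mark the 22.7% and 23.9% over all transcripts. B cell transcripts reach farthest to the right and neutrophil transcripts farthest to the left, apart from the small class highest in none of the 6.

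B cell transcripts showed the strongest shift toward spleen. B cells are the antibody-producing lymphocytes of the splenic follicles. Of 1364 transcripts highest in sorted B cells, 722 (52.9%) were called higher in spleen and 51 (3.74%) lower, with a median log2 fold change of 0.57 (quartiles 0.16 to 1.33). They formed 22.9% of all transcripts called higher but 66.7% of those at least 4-fold higher, with 182 of 273. At 16-fold they were 25 of 36 by the fitted values and 19 of 27 with the floor applied. Where B cells led the next sorted type by at least 1.5-fold, 227 of 308 transcripts were higher, 7 were lower and the median was 1.27.

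NK cell transcripts were the most numerous among higher calls, though larger shares of the B cell (52.9%) and CD8 T cell (38.9%) classes were called higher. NK cells are lymphocytes that kill infected or altered cells without an antigen receptor of their own. Of 2677 transcripts highest in sorted NK cells, 980 (36.6%) were higher in spleen and 160 (5.98%) lower, with a median of 0.21. They made up 31.1% of all higher calls and 70 of the 273 that were at least 4-fold higher. Which type came second divided them. The 546 NK transcripts with B cells as the runner-up had a median of 0.45 and held 51 of the 70 at least 4-fold higher. The 103 with neutrophils as the runner-up had a median of -0.19, with 4 higher and 26 lower. The 253 led by NK cells by at least 1.5-fold had a median of 0.38, with 105 higher and 13 lower.

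The T cell classes held few large changes. CD8 T cells are the cytotoxic T cells and CD4 T cells the helpers. Of 1800 transcripts highest in CD8 T cells, 700 (38.9%) were higher in spleen and 49 (2.72%) lower, with a median of 0.23, but only 7 were at least 4-fold higher and none at least 4-fold lower. Of 2582 highest in CD4 T cells, 509 (19.7%) were higher and 294 (11.4%) lower, with a median of 0.08. With library totals alone the CD4 T cell counts were 1006 higher and 104 lower. The share called higher then lay above that of all transcripts, 39.0% against 35.2%, where with TMM it lay below. Few transcripts told the T cell types from the rest. At 1.5-fold over the next type, only 30 of the CD8 T cell transcripts remained, with 3 higher and 1 lower. Of the 74 such CD4 T cell transcripts, 5 were higher and 18 lower with a median of -0.39, a direction opposite to that of the whole class.

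Neutrophil transcripts showed the strongest shift toward blood. Neutrophils are phagocytes that circulate in the blood. Of 1968 transcripts highest in sorted neutrophils, 1287 (65.4%) were lower in spleen and 29 (1.47%) higher, with a median log2 fold change of -0.57 (quartiles -1.18 to -0.24). They formed 38.8% of all lower calls but 78.6% of those at least 4-fold lower, with 184 of 234. None was at least 4-fold higher in spleen. Where neutrophils led by at least 1.5-fold, 575 of 738 transcripts were lower, 8 were higher and the median was -1.13. The 8 that went against the class had a median log2 fold change of 1.14.

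Monocyte transcripts, the largest class with 3466 of the 13885 tested, made up 44.1% of lower calls, but their changes were small. Monocytes are the blood phagocytes that can become macrophages in tissue. Of 3466 transcripts highest in sorted monocytes, 1463 (42.2%) were lower in spleen and 212 (6.12%) higher, with a median of -0.21. Only 28 were at least 4-fold lower and 5 at least 4-fold higher. With library totals alone the class had 845 lower calls against 994 for neutrophils, where with TMM it had more than neutrophils. Its median was then -0.05, and 35.7% of the class's calls were higher in spleen against 12.7% with TMM. The runner-up again divided the class. The 1565 monocyte transcripts with neutrophils second had a median of -0.48, with 1062 lower and 7 higher. The 340 with B cells second had a median of 0.04, with 48 lower and 69 higher. Among those led by monocytes by at least 1.5-fold, the 579 with neutrophils second had a median of -0.71 and the 365 with a lymphocyte type second a median of -0.17.

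The size of the change followed how far the leading type stood out in B cells, neutrophils and monocytes. For neutrophil transcripts the median was -0.32 where the lead was under 1.1-fold, -0.45 from 1.1-fold to 1.5-fold, -0.91 from 1.5-fold to 3-fold and -1.95 from 3-fold to 10-fold. For monocyte transcripts the same steps gave -0.09, -0.18, -0.41 and -0.79. For B cell transcripts they gave 0.26, 0.62 and 1.27, and only 2 transcripts had a lead of 3-fold or more. NK cell transcripts rose from 0.18 to 0.39 and then stayed at 0.37 from 3-fold to 10-fold, and CD8 T cell transcripts stayed between 0.17 and 0.23 over the first 3 steps. CD4 T cell transcripts went the other way, from 0.11 to -0.004 and -0.38. Of the 6594 transcripts whose leading type was under 1.1-fold ahead, 1858 were higher and 833 lower, with a median of 0.11.

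**Figure D3:**
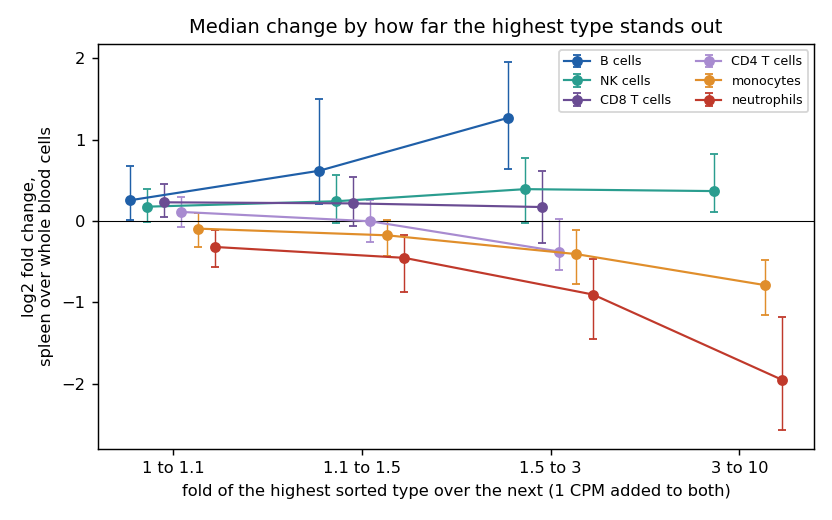
Median log2 fold change of spleen over WBC (points; bars are the quartiles over transcripts) for each sorted type of highest level, by the fold of that type over the next highest with 1 CPM added to both; steps with fewer than 20 transcripts are left out. Neutrophils end at -1.95 and B cells at 1.27, while NK cells end at 0.37 and CD4 T cells at -0.38.

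Per-sample shares of the total gave the same picture without a test. The 333 B cell transcripts with a lead of at least 1.5-fold held 3.86%, 4.27%, 4.18%, 4.15% and 3.59% of spleens 1 to 5. In WBC 1 to 5 they held 1.35%, 1.49%, 1.08%, 1.27% and 1.65%. The groups did not overlap, and the ratio of the means was 2.93. Sorted B cells held 5.04% ± 0.795 (SD, n = 6) in these transcripts, and the other splenic lymphocytes between 2.16% and 2.70% on average, above the WBC mean of 1.37%.

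The 900 neutrophil transcripts with that lead held 2.88%, 3.09%, 2.67%, 2.502% and 2.498% of spleens 1 to 5. In WBC 1 to 5 they held 4.78%, 6.18%, 9.15%, 6.85% and 6.36%. The groups were again apart, at a ratio of 0.409, and WBC varied more than spleen, from 4.78% in WBC 1 to 9.15% in WBC 3. Sorted neutrophils held 22.1% ± 2.64 in these transcripts and sorted monocytes 6.22% ± 0.714. The 4 sorted lymphocyte types held 1.90% to 2.55% on average, so the spleen mean of 2.73% lay just above the levels of its own sorted lymphocytes.

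The remaining classes differed less. NK cell transcripts with a lead of 1.5-fold held 0.506% ± 0.0450 of spleen and 0.352% ± 0.0164 of WBC, with no overlap. Sorted NK cells held 2.37% ± 1.04 (SD, n = 6) in these transcripts, unevenly, from 0.752% to 3.86% over the 6 samples. The other splenic lymphocytes held 0.415% to 0.496% on average. For monocytes the shares were 3.46% ± 0.232 and 4.36% ± 0.592, and the groups overlapped because WBC 1 held 3.49%. CD4 T cell transcripts (0.0483% and 0.0522%) and CD8 T cell transcripts (0.0940% and 0.0901%) overlapped as well. When every B cell transcript was counted, the B cell share of WBC was 25.7% and 17.3% in samples 1 and 2 against 10.3% to 10.5% in the other 3, with 12.9% to 15.6% in spleen. Without the 7 transcripts that set WBC 1 apart, the share was 10.5% ± 0.467 in spleen and 5.32% ± 0.448 in WBC.

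**Figure D4:**
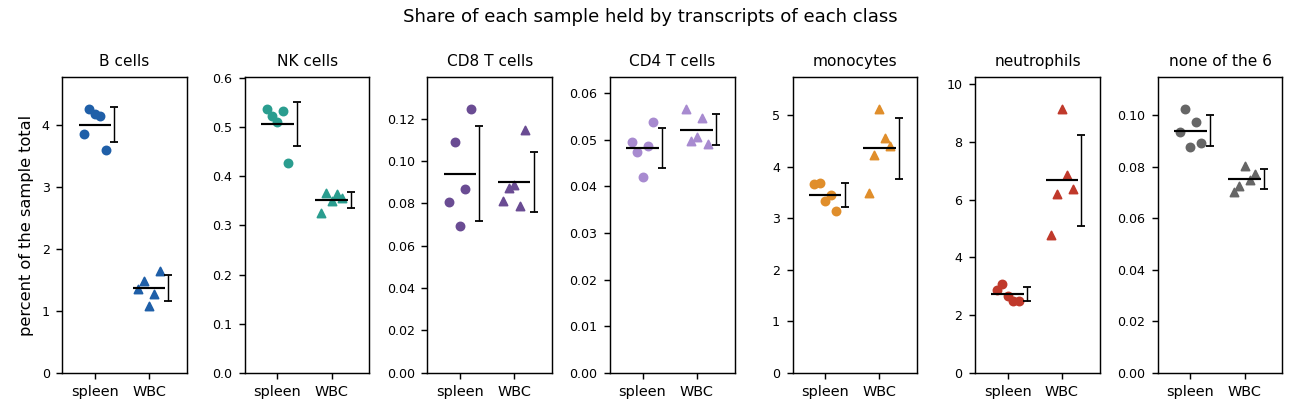
Percent of each sample's total held by the transcripts of each class that lead the next sorted type by at least 1.5-fold, and by the class highest in none of the 6; each panel has its own axis from 0, points are the 5 spleen samples (circles) and 5 WBC samples (triangles), and bars are the mean and SD. B cell shares lie at 3.59% to 4.27% in spleen and 1.08% to 1.65% in WBC, and neutrophil shares at 2.498% to 3.09% and 4.78% to 9.15%.

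Replicates were most variable in the classes that differed most. The median coefficient of variation over the transcripts averaging 10 CPM or more was 8.22% in spleen and 11.7% in WBC. It was 12.1% in spleen and 17.0% in WBC for B cell transcripts, and 9.58% and 16.8% for neutrophil transcripts. CD4 T cell transcripts varied by 7.54% and 8.69%.

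Only 28 tested transcripts were highest in none of the 6 sorted types, although 15723 of the 31196 in the table were under 1 CPM in every type. Of the 28, 2 were called higher in spleen, 11 lower and 15 were not called, with a median log2 fold change of -0.79. These had to reach 1 CPM through the spleen or WBC samples alone, so their share of calls is not comparable with that of the other classes. The 2 that were higher had spleen means of 1.80 and 2.09 CPM and WBC means of 0.221 and 0.276 CPM. Both were more abundant in the 5 control livers of the series, at 19.4 and 68.4 CPM. The 11 that were lower had WBC means of 1.51 to 7.37 CPM and spleen means of 0.0526 to 0.666 CPM. All 5 spleens lay below all 5 WBC samples in each of the 11 after TMM scaling, and in 10 of the 11 on CPM. Of these 11, 2 were at 1 CPM or more in control liver. Summed over the whole class, such transcripts held 0.0940% ± 0.00603 of spleen and 0.0751% ± 0.00397 of WBC.

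The class depended on the level taken as present. At 0.5 CPM only 8 tested transcripts were in none of the 6, with 0 higher and 5 lower in spleen by edgeR's test. At 5 CPM there were 2119, with 383 higher and 155 lower and a median of 0.17. Leaving out spleen 3 took the number called higher from 2 to 0, and leaving out any 1 of the 10 samples moved the median of the class to between -2.53 and -0.32.

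A separate fit asked which transcripts exceeded every sorted type, since a mixture of the 6 types alone cannot hold a larger share of a transcript than the richest of them. It used edgeR's quasi-likelihood test on the 10 samples and the 36 sorted samples together, with 14557 transcripts, and required an adjusted p-value under 0.05 against each of the 6 types. The fit used TMM scaling, under which the limit on shares of the total need not hold exactly. Spleen exceeded all 6 in 10 transcripts (0.0687%) and WBC in 38 (0.261%). With library totals alone the counts were 12 in spleen and 34 in WBC. Of the 10 in spleen, picked for a high level there, 9 were also called higher in spleen than in WBC. Among the sorted types, 5 were highest in NK cells. In control liver 9 were at 1 CPM or more, beside 75.3% of the 13885 transcripts tested between spleen and WBC. Only 1 of the 10 exceeded every type by 2-fold. Their smallest log2 fold change against the 6 types had a median of 0.43, and without replicate 6 of the sorted samples the count was 4.

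The 38 in WBC stood out further. Their smallest log2 fold change against the 6 types had a median of 2.44, and 33 of 38 exceeded every type by 2-fold. Of the 38, 20 were under 1 CPM in every sorted type and 11 were highest in neutrophils. The comparison of spleen with WBC tested 29 of them and called all 29 lower in spleen, against 23.9% of all transcripts, but they had been picked for a high level in WBC, so nothing is read from that count. Means in WBC ran from 1.02 to 3025 CPM with a median of 6.28 CPM. At 1 CPM or more in control liver were 19 of the 38, beside 75.3% of the 13885 transcripts tested between spleen and WBC. By the means alone, with no test, spleen lay above all 6 sorted types in 1118 of the 13885 transcripts and WBC in 189. Among the B cell transcripts at least 4-fold higher in spleen, the spleen mean was above that of sorted B cells in 112 of 182. Among the neutrophil transcripts at least 4-fold lower in spleen, the WBC mean was above that of sorted neutrophils in 16 of 184. Over calls of any size the counts were 237 of 722 and 31 of 1287. Both sets were picked for a high level in the group compared, so nothing is read from these counts.

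Large differences between spleen and WBC were mostly in transcripts under 1 CPM in liver. Of all transcripts tested, 75.3% were at 1 CPM or more in control liver, as were 75.5% of those called higher in spleen and 78.8% of those called lower. Of those at least 4-fold higher it was 35.9%, and of those at least 4-fold lower 39.7%. These shares are not compared at like abundance. A mean of 1 to 10 CPM was seen in 149 of the 273 at least 4-fold higher and 122 of the 234 at least 4-fold lower, against 6048 of the 13885 tested.

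Transcripts near 0 in one group allow only a bound. They could pass the filter of 1 CPM only through the other group, so a bound of several-fold was set by the filter and nothing is read from it. In 11 called higher in spleen, every WBC sample was at or under 3 counts, and spleen was at least 7.26-fold to 48.0-fold higher than the mean of that floor over the WBC samples. Of these, 7 were highest in B cells, 3 in NK cells and 1 in CD4 T cells, classes with 1364, 2677 and 2582 of the 13885 transcripts tested. In 5 called lower, every spleen was at or under 3 counts, and WBC was at least 7.56-fold to 11.6-fold higher.

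Single transcripts were followed by a rule on size and abundance, and by identifier since none was paired with a gene name. The largest rise among called transcripts with non-overlapping groups and at least 10 CPM was ENSRNOT00000084433, highest in B cells. It stood at 382, 447, 36.2, 24.9 and 30.2 CPM in spleens 1 to 5 and at 7.98, 1.62, 3.62, 9.91 and 6.11 CPM in WBC 1 to 5. The groups did not overlap, but spleens 1 and 2 were far above the other spleens. The log2 fold change was 4.75 ± 1.0 (SE), with an adjusted p-value of 0.0029 by edgeR. Over the alternatives it ran from 3.80 to 5.04, with adjusted p-values from 8.1e-07 to 0.025. Sorted B cells had a mean of 91.7 CPM, the other splenic lymphocytes 43.3 to 48.2 CPM, monocytes 7.05 CPM and neutrophils 3.12 CPM, and the control livers were at 0.

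The only called transcript of the class none of the 6 that was at least 4-fold higher with non-overlapping groups was ENSRNOT00000043953. It stood at 2.08, 1.57, 1.82, 2.58 and 0.968 CPM in spleens 1 to 5, which is 10.2 to 35.0 counts. In WBC 1 to 5 it stood at 0.510, 0.399, 0, 0 and 0.197 CPM. The log2 fold change was 2.75 ± 0.71 (SE), with an adjusted p-value of 0.0091 by edgeR. It passed the filter of 1 CPM through spleen alone, and leaving out spleen 1, 2, 3 or 4 took it out of the test. In the 14 alternatives that still tested it, the log2 fold change ran from 1.19 to 4.47 and the adjusted p-value from 0.00010 to 0.035, which says nothing of the settings that dropped it. Sorted CD8 T cells, the highest type, had a mean of 0.865 CPM, and the control livers 19.4 ± 3.82 CPM (SD, n = 5).

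The largest fall was ENSRNOT00000003745, highest in neutrophils. It stood at 0.399, 0.248, 0, 0.384 and 0.122 CPM in spleens 1 to 5, at most 5.22 counts. In WBC 1 to 5 it stood at 39.6, 34.6, 95.8, 49.99 and 49.6 CPM. Every WBC sample was far above every spleen. The log2 fold change was -7.95 ± 0.44 (SE), with an adjusted p-value of 2.6e-06 by edgeR. Over the alternatives it ran from -8.23 to -5.40, the smallest fall by limma with 1 CPM added, since the spleen values are near 0. Sorted neutrophils had a mean of 319 CPM and monocytes 78.6 CPM. The lymphocytes sorted from spleen had higher means than whole spleen, with 21.2 ± 22.7 CPM in B cells, 10.3 ± 14.03 in NK cells, 3.18 ± 5.78 in CD8 T cells and 5.40 ± 8.44 in CD4 T cells (SD, n = 6). Single sorted lymphocyte samples ranged from 0 to 57.4 CPM.

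The most abundant transcript with a fall of at least 4-fold was ENSRNOT00000015473, also highest in neutrophils. It stood at 1382, 1797, 1280, 1042 and 1589 CPM in spleens 1 to 5 and at 5284, 7252, 10173, 7784 and 7595 CPM in WBC 1 to 5. The groups did not overlap. The log2 fold change was -2.58 ± 0.17 (SE), with an adjusted p-value of 4.7e-06 by edgeR. Sorted neutrophils had a mean of 41758 CPM, 10.7 times that of the next type, monocytes at 3895 CPM, and the splenic lymphocytes 652 to 957 CPM. Whole spleen at 1418 CPM lay above all 4 of its sorted lymphocyte types.

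**Figure D5:**
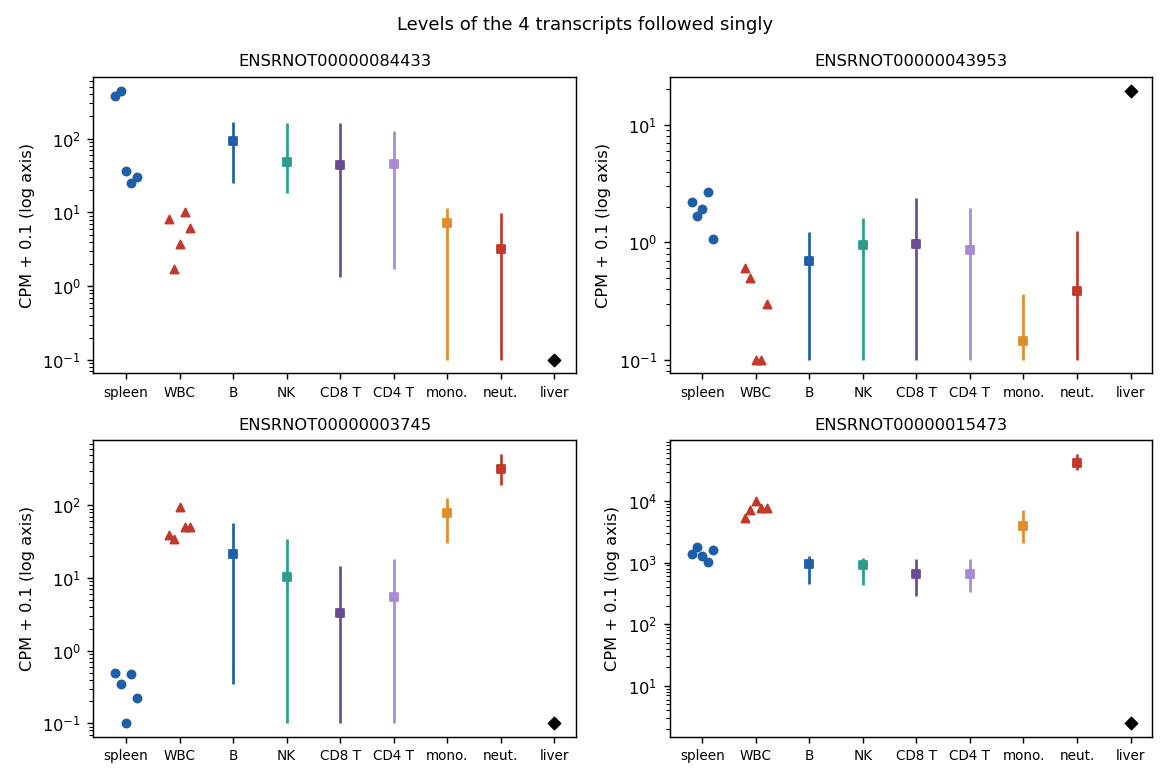
Levels of the 4 transcripts in CPM with 0.1 added (log axis): points are the 5 spleens and 5 WBC samples, squares with lines the mean and range of the 6 samples of each sorted type, and the diamond the mean of the 5 control livers. ENSRNOT00000003745 lies under 0.5 CPM in every spleen and above 34 CPM in every WBC sample.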

How the data were processed

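The authors trimmed paired-end reads, quantified transcripts with Salmon 1.6.0 against the Ensembl cDNA of Rnor_6.0 (GC and sequence bias corrected) and imported them with tximport under R 4.1.3; the submitters' processing notes also name mRatBN7.2. The methods give the unit as TPM, but the deposited totals differ between samples, so the deposited values were used as estimated counts, rounded for the count tests. Of the values above 0, 0.0% were whole numbers. Whether they had been rescaled, or still hold transcript length, was not tested. Fold changes compare levels within a transcript, while abundance ranges, ranks and shares of the total also set transcripts beside each other. Identifiers matched 0 of 47357 RefSeq genes, so gene names, marker checks and sequences are not given, and reads shared by near-identical transcripts could have been split by the quantifier.

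Samples were grouped by title, and 0 columns were left unassigned. Spleen and WBC had a fit of their own in edgeR 4.0.16 (R 4.3.3; TMM, quasi-likelihood test, mean of at least 1 CPM, adjusted p-value under 0.05). The spread between replicates was 0.225 as the common biological coefficient of variation. The floor of 3 counts equals 0.267 CPM in spleen and 0.284 CPM in WBC on average, and covers counting error only. The SE of a fold change is its size divided by the square root of the quasi-F value. The lead of a sorted type is the ratio of its mean to the next with 1 CPM added to both. Alternatives were library totals alone, DESeq2 1.42.0, limma 3.58.1 on log2 CPM, other filters and class rules, the replicate number as a block and leaving out each replicate; 2 more were added after seeing the data. The procedures were tested on simulated data. Transcripts followed singly were the largest change in each direction with non-overlapping groups and at least 10 CPM in the higher group, and the most abundant with at least 4-fold change, which for rises had to be in none of the 6. The comparison, classes and rules were chosen with earlier results of these data known.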

Additional observations from a re-analysis of the deposited data

Results flagged for a closer look

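Of 40 sets of 5 values checked for a sample far from the rest (Dixon's ratio above 0.71, which chance gives in about 1 of 20), 3 were flagged. The NK cell transcripts with a lead of at least 1.5-fold held 0.427% of spleen 5, against 0.509% to 0.537% in the other spleens. The CD8 T cell transcripts with that lead held 0.114% of WBC 5, against 0.0790% to 0.0888% in the other WBC samples. ENSRNOT00000003745 stood at 95.8 CPM in WBC 3, against 34.6 to 49.99 CPM in the other WBC samples, and WBC 3 also had the highest share of neutrophil transcripts, 9.15%.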

How the results depend on the processing

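No transcript called both here and under another setting of the test changed direction, though the balance of directions followed the scaling. Transcripts higher and lower in spleen numbered 4881 and 2045 with library totals alone, 5018 and 2066 by limma with 1 CPM added (also on library totals) and 4984 and 2041 with 0.1 CPM added. They numbered 2954 and 3263 by DESeq2. With library totals that left out the 7 transcripts of WBC 1, a choice made after seeing the data, they were 3815 and 2690. With library totals alone the median log2 fold changes were 0.73 in B cells, 0.24 in CD4 T cells, 0.39 in CD8 T cells, 0.37 in NK cells, -0.045 in monocytes and -0.41 in neutrophils. With the 7 transcripts left out of the totals they were 0.64 in B cells, 0.14 in CD4 T cells, 0.29 in CD8 T cells and 0.27 in NK cells. Without WBC 1 and 2 they were 0.64 in B cells and -0.30 in none of the 6.

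With only transcripts led by at least 1.5-fold, the medians were 1.27 in B cells, -0.39 in CD4 T cells (opposite to the whole class), 0.051 in CD8 T cells, 0.38 in NK cells, -0.48 in monocytes and -1.13 in neutrophils. The median of none of the 6 was -3.09 with 0.5 CPM taken as present, 0.17 with 5 CPM (the opposite direction) and -0.47 with the median of the sorted samples. Spleen exceeded all 6 types by 2-fold in 1 transcript. The cause of these differences was not tested.

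Leaving out 1 replicate gave 5875 to 6384 calls, with 2839 to 3119 higher and 3031 to 3265 lower. The medians ran from 0.51 to 0.60 in B cells, 0.06 to 0.11 in CD4 T cells, 0.20 to 0.25 in CD8 T cells, 0.19 to 0.26 in NK cells, -0.22 to -0.18 in monocytes, -0.60 to -0.51 in neutrophils and -2.53 to -0.32 in none of the 6. Transcripts above all 6 types numbered 4 to 14 in spleen and 31 to 39 in WBC. Samples with the same number did not deviate together (r from -0.006 to 0.028, and 0 of 5 spleens correlated best with its own number). With a replicate block there were 5762 calls, 2776 higher and 2986 lower.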
